A study of Mus musculus with 238 samples.

Results

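The 9 thalamus libraries of the diet experiment were compared across all genes: 5 from dietary restricted mice (aDR) and 4 from mice fed ad libitum (AL), of 238 libraries in the series. They were chosen by their labels (tissue, diet and mouse number), not by any measured value. All 9 mice were C57BL/6JN females of 19 months with no genetic change named in the labels, so sex, strain and age were shared by both diets. Each library came from a different mouse, and each mouse also gave libraries of other brain regions and of liver. The series asks how 15 brain regions of old mice respond to dietary restriction and, in separate male mice, to young plasma. The degree, length and feeding hours of the restriction are not given in the sources used here, nor is the hour at which tissue was taken.

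The thalamus relays sensory and motor signals to the cortex through glutamatergic relay neurons, which fire in bursts or in single spikes depending on arousal. Food restriction in rodents is known to raise circulating corticosterone, to lower body temperature and to shift the timing of clock genes when food comes at fixed hours. Corticosterone acts on the mineralocorticoid and glucocorticoid receptors, which bind DNA and raise target genes in neurons, glia and vessels.

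Library totals ran from 3.38 to 14.7 M counts in aDR mice and from 7.49 to 11.4 M in AL mice. Mitochondrial genes held 1.94% to 2.64% of counts, and neither totals (exact permutation p = 0.571, adjusted over 4 measures 0.836, n = 5 and 4, two-sided) nor this share (exact permutation p = 0.952, adjusted 0.952) differed with diet beyond the spread; with these numbers of mice the smallest possible p is 0.0159. The tissue label held: all 10 relay neuron markers examined had their highest AL mean among the 15 brain regions in the thalamus. The transcription factor Tcf7l2 averaged 1070 CPM (counts per M) there against 112 in the next region, the SVZ, and the kinase gene Prkcd 1054 against 242. A pair of libraries, 1 of each diet, stood apart on the first principal component (40.2% of variance). These were aDR mouse 64 and AL mouse 68, with scores of 38.0 and 36.5 against -25.0 to 11.7 in the others. They also had the highest summed level of 8 ependymal genes, 139 and 170 CPM against 20.4 to 41.6, none at 0 in all libraries, and the lowest summed level of 22 relay neuron genes, 5358 and 5126 CPM against 5678 to 7984. Counts of list members are therefore also given without both for the lists described at length and for others whose direction or number at a small p turned. In that fit 464 of 13385 genes (3.47%) reached an unadjusted p under 0.05.

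**Figure D1:**
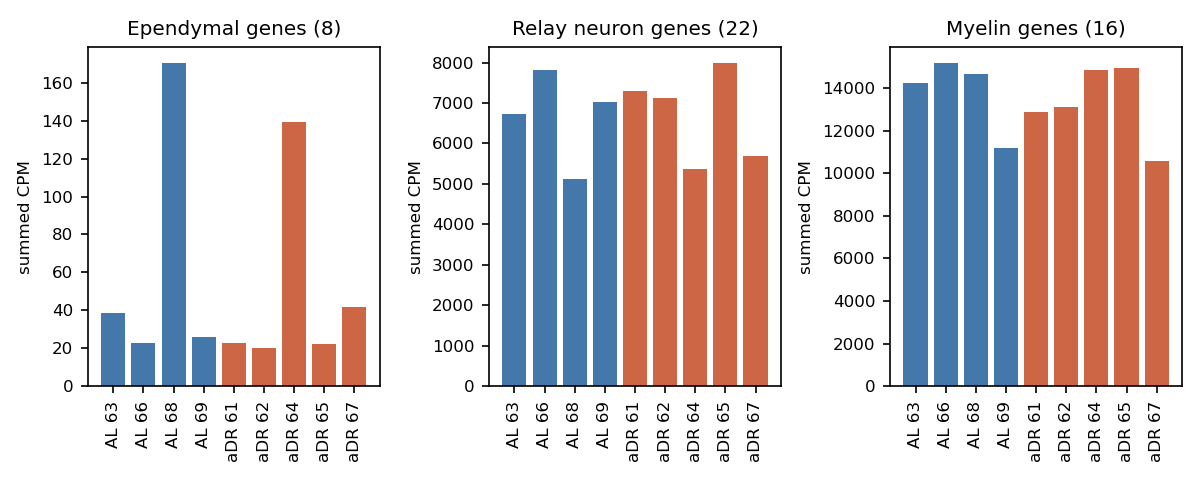
Summed CPM (vertical axis) of the ependymal, relay neuron and myelin lists in each thalamus library (bars, blue for AL and orange for aDR, with the mouse number below). AL mouse 68 and aDR mouse 64 show the highest ependymal sums, 170 and 139 CPM, and the lowest relay neuron sums.

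No gene passed the threshold of an adjusted p under 0.05 in the thalamus with edgeR's quasi-likelihood test (0 of 13435 genes tested, 0%). An unadjusted p under 0.05 was reached by 589 genes (4.38%), of which 252 were higher in aDR mice (1.88%) and 337 lower (2.51%). The log2 change was above 0 in 49.9% of genes. The lowest adjusted p, 0.224, belonged to Cirbp and Ciart. Every aDR library lay above every AL library in 133 genes (0.99%) and below in 140 (1.04%), together 2.03%. DESeq2 on the same counts called 15 genes (0.0848% of 17686 with an adjusted p), 8 higher and 7 lower in aDR mice. Among them were Cirbp, Ciart, Gjb6, Rbm3, Tsc22d3, Fmo2, Zbtb16 and Plin4, which were higher, and Ugt8a, Kdr, Zeb2, Chordc1, Fcrls and Fgfr2, which were lower. limma voom with sample weights called 7, all among those 15. An edgeR fit that took the spread from the thalamus of both experiments called only Cirbp. Calls thus depended on the tool, and the levels below are described gene by gene. The common coefficient of variation between mice of 1 diet was 0.156 in the thalamus and 0.0692 in the motor cortex, where the same edgeR test of the same mice called 33 genes. The spread was 0.253 in the liver, with 26 called, and 0.298 in the pons, with 0 called. Whether the spread set the number of calls was not tested.

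**Figure D2:**
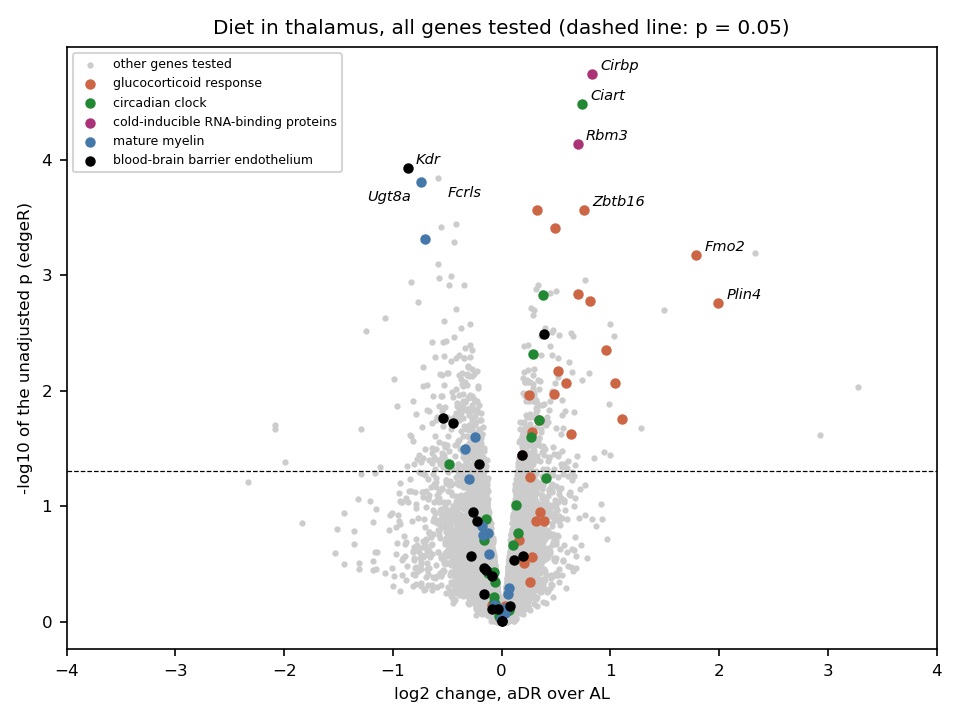
Each point is 1 of the 13435 genes tested in thalamus, with the log2 change of aDR over AL on the horizontal axis and the -log10 of the unadjusted edgeR p on the vertical axis, coloured by list. Cirbp, Ciart and Rbm3 stand highest, and Kdr, Fcrls and Ugt8a lead among lower genes; none passed the adjusted threshold.

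The cold-inducible RNA-binding proteins Cirbp and Rbm3 held 2 of the 3 smallest p of all genes, and both were higher in every restricted mouse. These proteins accumulate in mildly cooled cells and stabilise or modulate translation of bound mRNAs. Cirbp stood at 214, 190.3, 245, 254 and 183 CPM in aDR mice 61, 62, 64, 65 and 67 and at 138, 108, 121 and 123 CPM in AL mice 63, 66, 68 and 69, the order of mice used throughout. The lowest aDR library exceeded the highest AL library, mouse 63. The means were 217 ± 31.7 CPM (SD, n = 5) against 122 ± 12.3 (SD, n = 4), a log2 difference of 0.83 (SE 0.116, edgeR adjusted p = 0.224, DESeq2 adjusted p = 1.39e-07).

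Rbm3 stood at 113, 99.4, 100.4, 110.1 and 89.5 CPM in aDR mice and at 62.8, 65.2, 50.6 and 75.1 CPM in AL mice. The groups did not overlap, and AL mouse 68 was the lowest of all. Its log2 change was 0.70 (SE 0.114, edgeR adjusted p = 0.331, DESeq2 adjusted p = 1.04e-04), from means of 103 ± 9.47 CPM (SD, n = 5) against 63.4 ± 10.1 (SD, n = 4). The antisense transcript Rbm3os, added after its values were seen, averaged 5.67 ± 0.714 against 3.33 ± 0.339 CPM (log2 change 0.76), and without strand its reads and those of Rbm3 cannot be told apart. Body temperature is not given in the sources used here.

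Among clock genes, the repressors Ciart and Cry1 and the output gene Dbp were higher in every restricted mouse than in any fed mouse, while the activator Arntl overlapped between diets. Of 21 genes of the list, all tested, 11 were higher and 10 lower, with a median log2 change of 0.05 against 0.00 over all genes. Unadjusted p under 0.05 was reached by 6 of them, 5 higher and 1 lower, against 1.88% and 2.51% of all genes, and 3 did not overlap, all higher, against 0.99% of all genes. Log2 changes in the list ran from -0.49 to 0.74, and the lower member at that p is not among the genes given below. Without aDR mouse 64 and AL mouse 68, 10 were higher and 11 lower, and the median was -0.011. In that fit 6 reached that p, all higher, with Per2 among them and no lower member. The median thus lay about 0 and its sign turned with AL mouse 68 alone (-0.035 without it).

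Ciart encodes a repressor of the CLOCK and ARNTL activator pair. Its levels were 65.9, 54.2, 50.6, 65.6 and 57.1 CPM in aDR mice and 31.4, 32.8, 35.4 and 41.4 CPM in AL mice. All 5 restricted mice lay above all 4 fed mice, with a log2 difference of 0.74 (SE 0.111, edgeR adjusted p = 0.224, DESeq2 adjusted p = 2.46e-05). Dbp, a PAR bZIP factor that carries the clock signal to output genes, stood at 151, 147, 164, 191 and 162 CPM in aDR mice and 119.7, 129, 116 and 137 CPM in AL mice. These did not overlap either (log2 change 0.38, SE 0.0901, edgeR adjusted p = 0.681). Cry1, a core repressor, gave 48.8, 56.4, 51.5, 53.04 and 48.4 against 39.1, 44.3, 46.02 and 39.8 CPM, also without overlap, at a log2 difference of 0.29 (edgeR adjusted p = 0.952).

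The period gene Per1 overlapped between diets, because aDR mouse 64 (27.5 CPM) lay inside the AL range of 22.6 to 33.4 CPM. The other 4 restricted mice stood at 35.4 to 38.6 CPM, above every fed mouse, and the log2 change was 0.35. The deubiquitinase Usp2, a clock output, had a log2 difference of 0.27 with overlap, and Per2 one of 0.41 with overlap. Arntl averaged 45.8 ± 4.25 CPM (SD, n = 5) against 48.2 ± 2.25 (SD, n = 4), and the repressor Nr1d1 139 ± 14.6 against 154 ± 9.28 CPM; both overlapped.

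The promoters of 3 of these genes are shown because CLOCK and ARNTL bind the E-box CACGTG, and Ciart had the largest log2 change of the list. Each is the 250 bases before the start listed by RefSeq (GRCm38.p6), 5′ to 3′ on the gene's strand, with the letters CACGTG in capitals. Ciart lies at chr3:95882229-95882478 on the minus strand, Per1 at chr11:69098699-69098948 on the plus strand (1 of 2 starts listed) and Cry1 at chr10:85185055-85185304 on the minus strand.
Ciart: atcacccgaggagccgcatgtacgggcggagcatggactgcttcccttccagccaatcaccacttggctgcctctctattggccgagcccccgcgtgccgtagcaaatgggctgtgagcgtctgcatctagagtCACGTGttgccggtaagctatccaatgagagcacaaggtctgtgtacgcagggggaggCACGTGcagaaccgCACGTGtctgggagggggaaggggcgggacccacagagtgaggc
Per1: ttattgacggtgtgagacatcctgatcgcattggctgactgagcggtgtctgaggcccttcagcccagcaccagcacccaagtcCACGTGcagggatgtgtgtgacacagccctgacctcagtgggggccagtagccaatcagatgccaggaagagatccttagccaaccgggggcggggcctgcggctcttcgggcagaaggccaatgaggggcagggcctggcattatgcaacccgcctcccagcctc
Cry1: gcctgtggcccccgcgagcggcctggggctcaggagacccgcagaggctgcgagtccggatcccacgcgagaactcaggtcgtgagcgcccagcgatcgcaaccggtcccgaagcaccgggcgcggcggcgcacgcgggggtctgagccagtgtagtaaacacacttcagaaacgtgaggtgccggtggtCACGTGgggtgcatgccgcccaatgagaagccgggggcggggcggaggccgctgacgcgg
Ciart holds 3 copies, at 116, 58 and 44 bases before the start, Per1 1 at 166 and Cry1 1 at 60. CACGTG reads the same on both strands and occurs in 6.02% of the 32851 windows of this length in the table. That share is per window, whereas the Per1 window was picked by its number of matches among 2 listed starts. The D-box TTATGTAA (TTACATAA on the other strand), bound by Dbp and its relatives, occurs in 0.819% of windows and in none of these 3. A match describes letters in a window and is not evidence of binding in thalamus. The windows of Dbp and Usp2 were also searched and held none of these letters.

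Known corticosteroid targets were mostly higher in the thalamus of restricted mice. Of 30 genes of the glucocorticoid response list, 29 were tested, 27 were higher and 2 lower, and the median log2 change was 0.35 against 0.00 over all genes. Unadjusted p under 0.05 was reached by 18, all higher, against 1.88% of all genes, and 7 did not overlap, all higher, against 0.99%. The list holds 8 genes that had been noticed in these data before, so their direction is no independent evidence. Without those 8, 19 of 21 tested were higher, the median was 0.28, 10 reached unadjusted p under 0.05 and 3 did not overlap. The list itself was chosen with earlier results of these data known, so these counts are no independent evidence either. Without aDR mouse 64 and AL mouse 68, all 29 tested members were higher, with a median of 0.47, and 19 reached that p. No member passed edgeR's adjusted threshold.

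**Figure D3:**
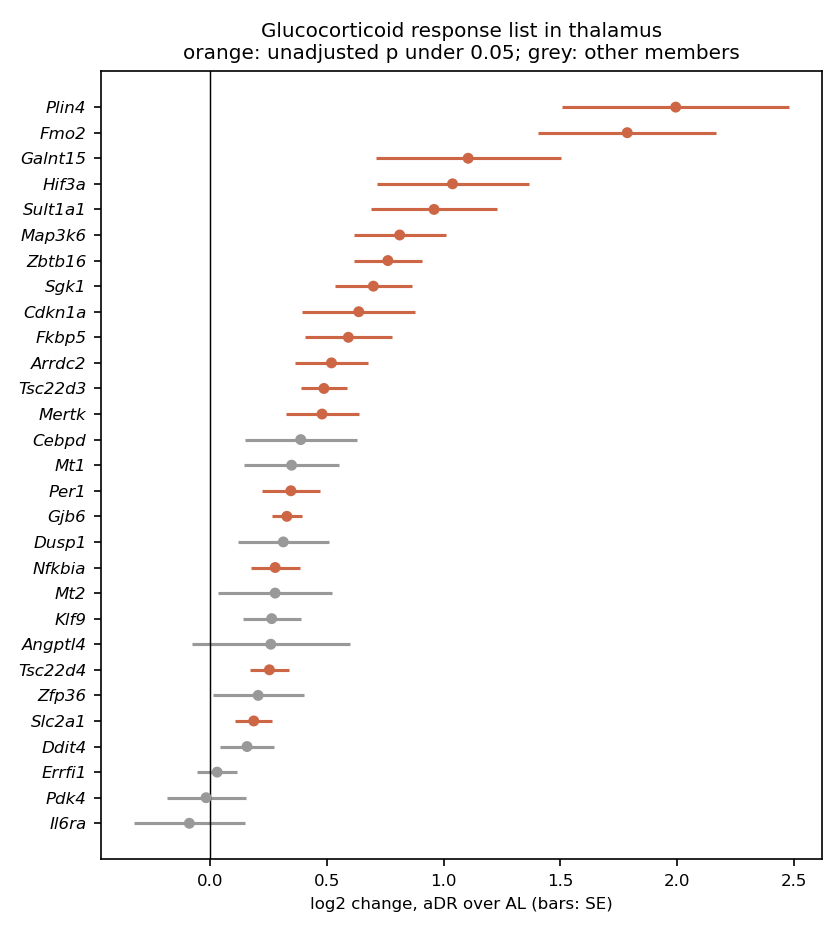
Log2 change of aDR over AL in thalamus (horizontal axis, bars SE) for the 29 tested members of the glucocorticoid response list, ordered by value, orange where the unadjusted p was under 0.05. Of these, 27 lie to the right of 0, from Plin4 and Fmo2 at the top, and 2, Pdk4 and Il6ra, lie to the left.

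Tsc22d3 (GILZ), an anti-inflammatory leucine zipper protein and classic glucocorticoid target, stood at 298, 273, 237, 268 and 298 CPM in aDR mice and 193, 211, 167 and 214 CPM in AL mice. No restricted mouse was as low as a fed one, and the log2 change was 0.49 (SE 0.0972, edgeR adjusted p = 0.477, DESeq2 adjusted p = 0.00517). Zbtb16 (PLZF), a zinc finger transcription factor, gave 20.5, 19.5, 15.2, 17.8 and 19.4 against 9.16, 9.72, 10.8 and 14.4 CPM. AL mouse 69 came closest to the restricted mice, without overlap, at a log2 difference of 0.76 (SE 0.145, edgeR adjusted p = 0.462, DESeq2 adjusted p = 0.0155). The kinase gene Sgk1, which regulates ion channels and transporters, gave 277, 192, 152, 213 and 276 against 122, 128, 147 and 151 CPM. AL mouse 69 and aDR mouse 64 were nearly level, though the groups did not overlap, and the restricted mice spread widely (SD 54.3 against 13.97), with a log2 difference of 0.70 (edgeR adjusted p = 0.681).

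Fmo2, a flavin monooxygenase, had the largest positive log2 change among genes at 5 CPM or more on average whose diets did not overlap and whose unadjusted p was under 0.05. It stood at 6.51, 6.69, 7.31, 6.80 and 20.4 CPM in aDR mice and 2.45, 2.04, 3.02 and 3.198 CPM in AL mice. Mouse 67 stood far above the other restricted mice, which still all exceeded every fed mouse. The log2 change was 1.79 (SE 0.382, edgeR adjusted p = 0.602), and 1.33 without mouse 67. Plin4, a lipid droplet coat protein, gave 13.4, 19.2, 10.8, 6.28 and 25.4 against 3.23, 2.16, 7.54 and 1.33 CPM. AL mouse 68 exceeded aDR mouse 65, so the groups overlapped, and the log2 change was 1.99 (SE 0.486, edgeR adjusted p = 0.732, DESeq2 adjusted p = 0.0396) and 2.73 without AL mouse 68.

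The receptor cochaperone Fkbp5, which lowers the receptor's affinity for hormone, gave 33.4, 44.7, 38.6, 30.7 and 61.6 against 25.03, 24.6, 31.6 and 28.4 CPM. Mouse 65 lay inside the AL range and mouse 67 was highest (log2 change 0.59, edgeR adjusted p = 0.990). Hif3a, a hypoxia-inducible factor subunit, gave 3.53, 4.81, 1.76, 2.97 and 6.23 against 1.42, 1.92, 2.26 and 1.87 CPM, with overlap through aDR mouse 64 (log2 change 1.04). The stress kinase gene Map3k6 did not overlap, at 5.75, 6.69, 4.97, 7.50 and 8.73 against 4.13, 3.96, 3.94 and 3.198 CPM (log2 change 0.81). The receptors themselves had lower means in aDR mice: the mineralocorticoid receptor Nr3c2 averaged 21.04 ± 3.81 CPM (SD, n = 5) against 26.2 ± 1.40 (SD, n = 4) (log2 change -0.30) and the glucocorticoid receptor Nr3c1 173 ± 27.3 CPM (SD, n = 5) against 195 ± 27.1 (SD, n = 4) (log2 change -0.17), both with overlap. Of 4 tested genes of corticosteroid receptors and enzymes, 1 was higher and 3 lower. Nr3c2 alone, which was lower, reached unadjusted p under 0.05, against 2.51% of all genes. None did without mice 64 and 68.

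The promoters of Sgk1 and Map3k6 are shown because their windows held a paired half-site of the kind the glucocorticoid receptor binds. The pattern searched was GNACA and TGTNC with any 3 bases between them, which reads the same on the other strand. It occurs in 0.387% of the 32851 windows, a share per window and not per best of several starts. In the sequences from RefSeq (GRCm38.p6), capitals mark that pattern and, in Sgk1, also CACGTG. Sgk1 lies at chr10:21993640-21993889 on the plus strand, 1 of 6 listed starts and the one with most matches, and Map3k6 at chr4:133240568-133240817 on the plus strand.
Sgk1: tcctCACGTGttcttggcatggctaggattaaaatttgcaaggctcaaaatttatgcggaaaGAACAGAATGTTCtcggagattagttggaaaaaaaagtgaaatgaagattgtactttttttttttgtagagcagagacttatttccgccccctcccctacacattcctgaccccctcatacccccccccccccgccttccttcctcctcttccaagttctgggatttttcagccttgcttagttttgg
Map3k6: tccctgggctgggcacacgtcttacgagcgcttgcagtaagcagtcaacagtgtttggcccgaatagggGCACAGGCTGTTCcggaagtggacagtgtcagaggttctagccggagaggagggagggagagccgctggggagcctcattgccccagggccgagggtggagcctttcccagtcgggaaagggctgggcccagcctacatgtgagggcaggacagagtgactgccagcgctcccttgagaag
The pair lies 188 bases before the start in Sgk1 and 181 in Map3k6, and the CACGTG of Sgk1 lies at 246. The windows of Tsc22d3, Fmo2, Plin4, Hif3a and Gjb6 held none of the patterns searched, and that of Fkbp5 held 1 CACGTG at 169. Of 20 genes looked up, 18 had a window. Receptor sites are often far from the start, and the absence of these letters from 250 bases says nothing about the receptor.

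**Figure D4:**
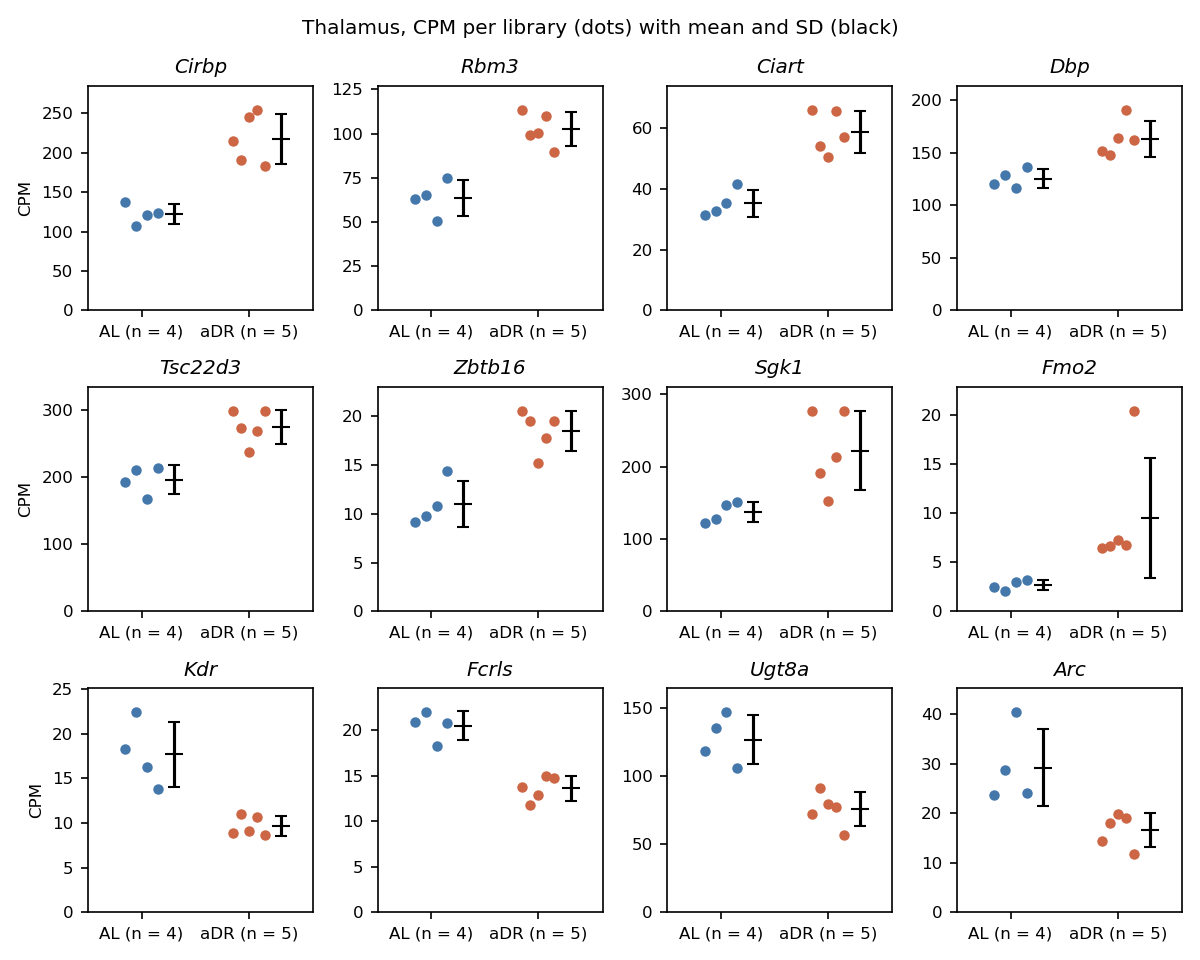
CPM (vertical axes from 0) of 12 genes in each thalamus library (dots, blue for AL and orange for aDR), with mean and SD in black. In every panel the diets do not overlap. Named genes with overlap, such as Plin4, Hif3a, Fkbp5, Fabp7, Per1 and C4b, are not shown. Over all genes tested 2.03% did not overlap. Fmo2 shows aDR mouse 67 at 20.4 CPM, far above the other 4 restricted mice.

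Astrocyte genes differed in direction. Of 12 defining astrocyte genes, all tested, 7 were higher and 5 lower (median log2 change 0.04), and 5 reached unadjusted p under 0.05, 3 higher and 2 lower, against 1.88% and 2.51% of all genes. With both of mice 64 and 68 left out the directions were again 7 and 5, and 4 reached that p. Gjb6 encodes connexin 30 of astrocyte gap junctions and is also on the glucocorticoid list. It stood at 193, 187, 176, 183 and 191 CPM in aDR mice and 149, 150.1, 141 and 152 CPM in AL mice, with little spread in either group and no overlap. The log2 change was 0.33 (SE 0.0628, edgeR adjusted p = 0.462, DESeq2 adjusted p = 3.29e-05). Etnppl, an astrocyte enzyme that breaks down phosphoethanolamine, gave 177, 181, 174, 154 and 244 against 125.5, 132, 132 and 136 CPM. Mouse 67 was again highest and the groups did not overlap (log2 change 0.50, edgeR adjusted p = 0.681).

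The other astrocyte members overlapped between diets. The lipid carrier Fabp7 averaged 20.6 ± 3.34 CPM (SD, n = 5) against 28.3 ± 3.99 (SD, n = 4) (log2 change -0.46), the water channel Aqp4 94.01 ± 17.8 against 115 ± 7.35 CPM (-0.29) and angiotensinogen, Agt, 289 ± 60.3 against 205 ± 30.9 CPM (0.49). In the reactive astrocyte list 12 were tested, 5 higher and 7 lower, and 2 reached unadjusted p under 0.05 (4.38% of all genes did), Id3 and Aqp4. Without mice 64 and 68 the list turned to 7 higher and 5 lower, and Id3 alone reached that p. Id3, an inhibitor of bHLH factors, did not overlap, at 71.02, 74.8, 79.3, 89.8 and 90.5 against 59.6, 51.4, 68.8 and 57.02 CPM (log2 change 0.45, edgeR adjusted p = 0.681).

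Genes of mature oligodendrocytes mostly had lower values in restricted mice. Of 16 mature myelin genes, all tested, 12 were lower and 4 higher (median log2 change -0.12), and 4 reached unadjusted p under 0.05, all lower, against 2.51% of all genes. Of these, 2 did not overlap, Ugt8a among them, against 1.04% of all genes. In bulk tissue, fewer cells of a type and less RNA per cell cannot be told apart. With aDR mouse 64 and AL mouse 68 left out, 13 were lower and 3 higher (median -0.12), and 4 reached that p. The summed myelin level overlapped, at 10575 to 14919 CPM in aDR and 11180 to 15163 CPM in AL mice.

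Ugt8a makes galactosylceramide, the main glycolipid of myelin. Its levels were 72.2, 91.4, 79.6, 77.3 and 57.1 CPM in aDR mice and 118, 135, 147 and 106 CPM in AL mice. Every restricted mouse was lower than every fed mouse, at a log2 difference of -0.74 (SE 0.132, edgeR adjusted p = 0.348, DESeq2 adjusted p = 7.73e-04). Fa2h, which hydroxylates myelin lipids, and the cytoskeletal protein gene Ermn had log2 changes of -0.34 and -0.24, with overlap.

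Among 9 tested genes of oligodendrocyte precursors and their differentiating progeny, 6 were lower and 3 higher, with and without mice 64 and 68. Over all 9 mice 2 reached unadjusted p under 0.05, Olig2 and Cspg4, both lower, against 2.51% of all genes, and 2 did not overlap, against 1.04%. Without those mice Olig2 (lower) and the sialidase gene Neu4 (higher) reached that p. The lineage factor Olig2 did not overlap, at 28.8, 30.4, 32.2, 29.3 and 28.9 against 33.8, 40.9, 36.3 and 35.04 CPM (log2 change -0.29, edgeR adjusted p = 0.925). Cspg4 (NG2), also a pericyte gene, overlapped because aDR mouse 61 stood at 13.9 CPM while the other 4 lay at 9.97 to 10.8 (log2 change -0.29). Enpp6, a marker of newly forming oligodendrocytes, did not overlap, at 13.7, 13.1, 13.8, 13.6 and 6.48 against 14.3, 16.7, 18.9 and 15.1 CPM, with mouse 67 far lowest (log2 change -0.40, and -0.27 without mouse 67). The growth factor receptor gene Fgfr2, named after its values were seen because DESeq2 called it, gave 50.03, 63.8, 51.2, 49.4 and 35.9 against 79.2, 77.2, 72.4 and 73.4 CPM (log2 change -0.58, edgeR adjusted p = 0.676, DESeq2 adjusted p = 0.0305).

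Of all genes with lower values in restricted mice, an endothelial gene had the smallest p. Kdr (VEGF receptor 2), the main receptor through which endothelium answers VEGF, stood at 8.94, 11.03, 9.07, 10.6 and 8.73 CPM in aDR mice and 18.3, 22.4, 16.3 and 13.9 CPM in AL mice. The restricted mice lay close together and below every fed mouse, at a log2 difference of -0.86 (SE 0.149, edgeR adjusted p = 0.348, DESeq2 adjusted p = 0.00963). Mcam, an adhesion molecule of endothelium and pericytes, gave 8.25, 8.33, 8.48, 8.20 and 6.73 against 11.5, 12.6, 11.2 and 11.99 CPM, with no overlap (log2 change -0.56, edgeR adjusted p = 0.477).

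The endothelial list as a whole was mixed. Of 20 members, all tested, 13 were lower and 7 higher (median log2 change -0.11), and 6 reached unadjusted p under 0.05, 4 lower and 2 higher, against 2.51% and 1.88% of all genes. With aDR mouse 64 and AL mouse 68 left out, 14 were lower and 6 higher (median -0.05), and 5 reached that p. The tight junction gene Cldn5 averaged 10.3 ± 2.16 CPM (SD, n = 5) against 14.9 ± 3.63 (SD, n = 4) (log2 change -0.54) and the angiopoietin receptor Tek 11.7 ± 1.91 against 16.1 ± 3.33 CPM (-0.45), both with overlap. Mfsd2a, the lipid transporter of the blood-brain barrier, lay the other way without overlap, at 22.4, 22.2, 19.02, 20.9 and 17.2 against 15.5, 17.04, 14.6 and 15.9 CPM (log2 change 0.39, edgeR adjusted p = 0.862). The glucose transporter Slc2a1 averaged 158 ± 9.57 against 138 ± 11.6 CPM (log2 change 0.19, overlap). Of 9 mural cell genes tested, 5 were lower and 4 higher (median log2 change -0.24), and 2 reached unadjusted p under 0.05, both lower, against 2.51% of all genes. The potassium channel subunit Abcc9 of pericytes, 1 of these 2, had a log2 difference of -0.58 with overlap. Without mice 64 and 68, 6 were lower and 3 higher, and 2 reached that p, both lower. The summed endothelial level was 1278 to 1533 CPM in aDR and 1321 to 1433 CPM in AL mice.

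Microglial genes were listed together with those of complement and MHC class I, and that joint list had a median log2 change of -0.02. Fcrls, which is not on it, was among the 10 genes with the smallest p. This Fc receptor-like gene of resident microglia stood at 13.7, 11.7, 12.9, 15.00 and 14.7 CPM in aDR mice and 20.9, 21.96, 18.2 and 20.8 CPM in AL mice. No values overlapped, and the log2 change was -0.59 (SE 0.104, edgeR adjusted p = 0.348, DESeq2 adjusted p = 0.0303). Of 22 tested genes of complement, MHC class I and microglia, 10 were higher and 12 lower (median log2 change -0.02). This turned to 15 higher and 6 lower of 21 (median 0.06) without mice 64 and 68. The fractalkine receptor Cx3cr1 alone reached unadjusted p under 0.05 in either fit, against 4.38% of all genes in the fit of 9, at 48.6, 47.2, 47.98, 42.4 and 52.4 against 58.2, 61.1, 53.2 and 53.03 CPM, without overlap (log2 change -0.24). The complement gene C4b, known to be higher in aged brain, ranged from 20.9 to 75.3 CPM in aDR and from 27.05 to 77.5 CPM in AL mice (log2 change 0.01, SE 0.376). Zeb2, a repressor with roles in glia and neurons, gave 37.6, 39.3, 40.7, 31.8 and 35.7 against 51.2, 49.3, 48.96 and 47.8 CPM without overlap (log2 change -0.42, edgeR adjusted p = 0.477, DESeq2 adjusted p = 0.0155).

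Of 17 immediate early genes tested, which neurons switch on when they fire, 2 were lower at unadjusted p under 0.05, Arc and Egr1, against 2.51% of all genes. In all, 11 were lower and 6 higher (median log2 change -0.16); with aDR mouse 64 and AL mouse 68 left out, 10 were lower and 7 higher (median -0.08), and 2 reached that p. Arc, whose protein governs receptor uptake at synapses, stood at 14.4, 17.9, 19.9, 19.02 and 11.7 CPM in aDR mice and 23.6, 28.8, 40.4 and 23.98 CPM in AL mice. The groups did not overlap, AL mouse 68 was far highest, and the log2 change was -0.83 (SE 0.190, edgeR adjusted p = 0.681) and -0.62 without that mouse. The transcription factor Egr1 gave 63.2, 66.98, 67.00, 57.9 and 58.3 against 93.2, 81.01, 91.8 and 63.3 CPM, with AL mouse 69 inside the aDR range (log2 change -0.39, edgeR adjusted p = 0.952).

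The lists of relay neuron identity, burst firing, GABA transmission and thyroid hormone genes gave no member with a small p over all 9 mice. Without the pair that stood apart, 3 relay neuron genes and 1 thyroid gene had one. With all mice, none of 22 relay neuron identity genes, 17 tested burst firing channels, 15 GABA transmission genes and 11 tested thyroid hormone genes reached unadjusted p under 0.05, where 4.38% of all genes did. Their median log2 changes were 0.00, -0.06, -0.08 and -0.09. Without aDR mouse 64 and AL mouse 68, 3 of the 22 relay neuron genes did, against 3.47% of all genes: Gbx2 was higher (log2 change 0.30) and Rgs16, a regulator of G protein signalling, and Kitl, the ligand of the receptor Kit, were lower (-0.33 and -0.29). The adjusted p was 0.9996 for each. The relay median was then -0.0081, with 10 higher and 12 lower where all 9 mice gave 12 and 10, and 1 of the 11 thyroid genes, Klf9, reached that p (0.30). The relay neuron factor Tcf7l2 averaged 1114 ± 132 CPM (SD, n = 5) against 1062 ± 157 (SD, n = 4) (log2 change 0.07, SE 0.119), and Gbx2, which patterns the thalamus, 90.96 ± 10.1 against 75.8 ± 14.6 CPM (0.26, SE 0.129). The pacemaker channel Hcn2 averaged 94.7 ± 24.2 against 105 ± 25.8 CPM (-0.14, SE 0.208) and the T-type channel Cacna1i 3.55 ± 0.773 against 4.60 ± 1.46 CPM (-0.40, SE 0.267).

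Gad1, which makes GABA and marks neurons of the reticular nucleus and interneurons, varied over an order of magnitude within each diet. It stood at 11.2, 11.03, 82.5, 6.11 and 45.6 CPM in aDR mice and 94.5, 8.16, 170.3 and 35.04 CPM in AL mice. High and low mice occurred in both diets, and the log2 change of -1.45 had an SE of 0.844. Leaving out AL mouse 68 gave -0.69, and leaving out aDR mouse 64 gave -2.21. Klf9, a thyroid and corticosteroid target, gave 229, 216, 162, 259 and 223 against 174, 193, 161 and 198 CPM with overlap (log2 change 0.26).

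Metabolic lists had medians near that of all genes. Of 20 tested genes of fasting and ketone metabolism, 8 were higher and 12 lower (median log2 change -0.01), and Etnppl and the uncoupling protein Ucp2 (41.9 ± 8.60 against 31.8 ± 5.93 CPM, log2 change 0.39, overlap) reached unadjusted p under 0.05, where 4.38% of all genes did. Without mice 64 and 68 the directions turned to 12 higher and 8 lower (median 0.04), and the same 2 genes reached that p. None of 18 insulin and IGF signalling genes, 19 mTOR and autophagy genes and 23 cholesterol synthesis genes tested did. Their median log2 changes were -0.01, 0.05 and 0.09, with 9, 13 and 17 members higher and 9, 6 and 6 lower. Without mice 64 and 68, 1 cholesterol gene, Lss, reached that p, and 16 of that list were higher and 7 lower. The insulin and IGF list then had 6 higher and 10 lower of 16 tested. Foxo1, a factor held out of the nucleus by insulin, averaged 31.95 ± 6.31 CPM (SD, n = 5) against 27.2 ± 4.09 (SD, n = 4) (log2 change 0.21), and the insulin receptor substrate Irs1 19.1 ± 2.17 against 21.9 ± 1.74 CPM (-0.19). Of 11 lipogenic genes, 9 were lower, and 2 reached unadjusted p under 0.05, Scd2 and Elovl5, both lower, against 2.51% of all genes. Without mice 64 and 68, 8 were lower and Scd2 alone reached that p. The desaturase Scd2 averaged 564 ± 64.5 against 681 ± 96.4 CPM (-0.27, overlap).

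Chaperones differed in direction. Of 26 tested heat shock and unfolded protein genes, 15 were lower and 11 higher, with and without mice 64 and 68, and 5 reached unadjusted p under 0.05 in each fit. Of the 5 over all 9 mice, 4 were lower and 1 higher, against 2.51% and 1.88% of all genes. Herpud1, of the degradation machinery of the endoplasmic reticulum, was higher without overlap, at 135, 133, 121, 144 and 135 against 114, 114, 108 and 115 CPM (log2 change 0.25). The disulfide isomerase Pdia3, at 184, 189, 188, 171 and 209.7 against 218, 212, 225 and 242 CPM, and the cytosolic chaperone Hsph1, at 325, 349, 328, 310.4 and 342 against 394, 409, 377 and 351 CPM, were lower without overlap (log2 changes -0.25 and -0.21). Pdia4 averaged 33.8 ± 6.75 against 44.1 ± 5.77 CPM with overlap (-0.41). Chordc1, an HSP90 cochaperone outside the list that DESeq2 called, gave 77.7, 85.6, 72.9, 76.6 and 88.3 against 99.4, 125, 109 and 100.5 CPM, without overlap (log2 change -0.44, edgeR adjusted p = 0.533, DESeq2 adjusted p = 0.0233). It was named after its values were seen.

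The thalamus was then set beside the 11 other brain regions from which all 9 mice had a library. Per mouse, the mean log2 level over those regions was subtracted from the thalamus level, and the diets were compared with limma. No gene passed an adjusted p under 0.05 (0 of 13187, 0%), and 228 reached an unadjusted p under 0.05 (1.73%). limma's adjusted p was 0.9995 for each gene given in this comparison. No diet difference can therefore be called particular to the thalamus.

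For the leading genes the log2 change of limma in thalamus and the mean of the other regions, which come from the same mice, are given side by side. They were 0.73 against 0.77 for Ciart, 0.70 against 0.68 for Rbm3, 0.49 against 0.48 for Tsc22d3 and 2.11 against 2.04 for Plin4. The 95% interval of the difference ran from -0.30 to 0.23 for Ciart and from -0.19 to 0.23 for Rbm3. For Cirbp the values were 0.82 against 0.63, with an interval from -0.08 to 0.46, and for Kdr -0.84 against -0.55, from -0.67 to 0.09. Intervals of this width do not show that the thalamus responded as the other regions did.

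Etnppl was 0.48 against 0.86, a difference of -0.37 (95% interval from -0.66 to -0.09). Fitted region by region with edgeR, its log2 change ran from 0.29 in the pons to 1.42 in the caudate putamen, with 0.50 in the thalamus. Egr1 was -0.38 against 0.03, a difference of -0.41 (from -0.79 to -0.02), and Arc was -0.80 against -0.14, with an interval that spans 0 (from -1.52 to 0.20). Arntl was -0.08 against -0.34, a difference of 0.27 (from 0.06 to 0.47). Among genes lower in restricted mice, Ugt8a was -0.75 against -0.48 (difference from -0.53 to -0.006) and Mcam -0.55 against -0.31 (from -0.43 to -0.07). The interval also lay below 0 for Fgfr2, Enpp6 and Pdia4, and it spanned 0 for Fcrls, Zeb2, Chordc1 and Olig2. These intervals are for single genes and none holds after adjustment over all genes.

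By the smallest p the 5 leading genes of this test were Proz, Rab26os, C5ar1, Haus4 and Tmem39a, most of them at low levels in the thalamus. Proz, related to the clotting factors, gave 2.77, 4.22, 2.93, 2.97 and 2.99 against 2.06, 1.56, 2.26 and 1.33 CPM, without overlap and with a difference of 0.94 (95% interval from 0.59 to 1.29). The complement receptor gene C5ar1 gave 1.32, 0.938, 0.585, 1.40 and 2.74 against 2.45, 2.88, 2.93 and 2.398 CPM, with overlap through aDR mouse 67 (difference -1.001). Haus4, a microtubule-nucleating subunit, gave 2.49, 2.46, 2.93, 2.62 and 2.74 against 1.55, 1.80, 1.84 and 1.87 CPM (difference 0.54), Rab26os 3.14 ± 0.691 against 1.81 ± 0.146 CPM (0.73) and Tmem39a 9.22 ± 0.879 against 13.3 ± 2.19 CPM (-0.51).

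**Figure D5:**
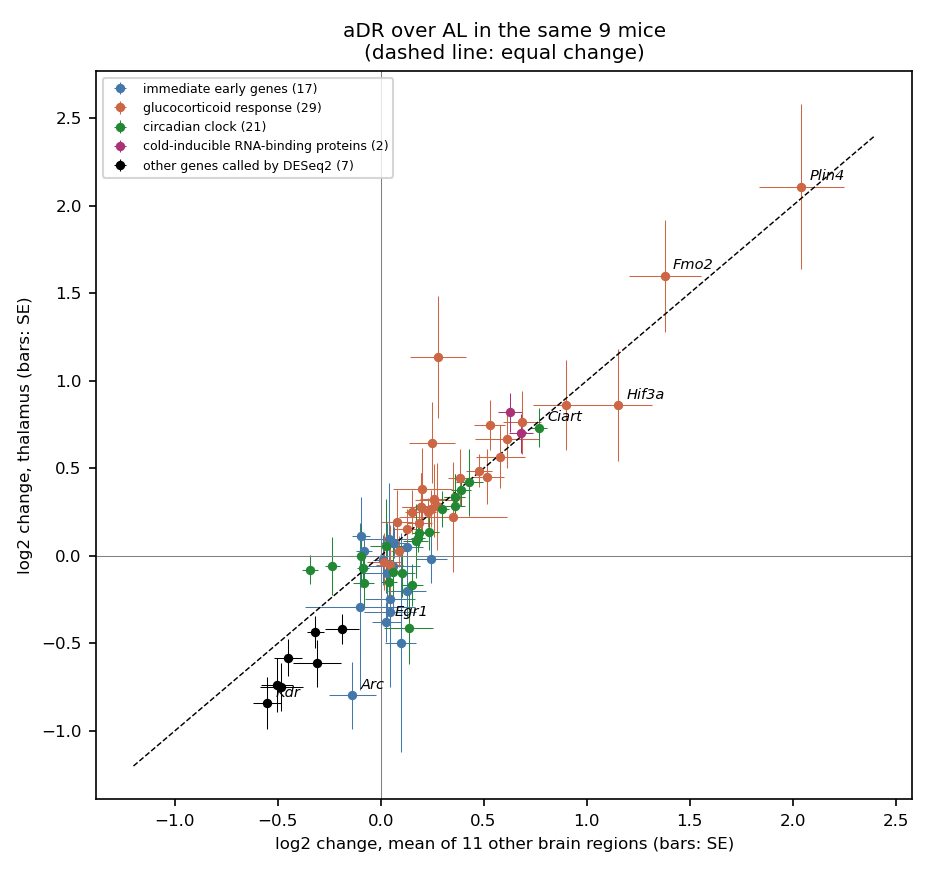
Log2 change of aDR over AL as the mean of 11 other brain regions (horizontal axis) and in thalamus (vertical axis), bars SE, for 29 glucocorticoid, 21 clock, 17 immediate early and 2 cold-inducible genes and 7 further genes called by DESeq2 in thalamus, the last chosen for their thalamus values. The dashed line marks equal change; both axes use the same mice, Plin4 lies near the line and Arc and Egr1 lie below it.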

How the data were processed

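Whole-number read counts per gene, deposited by the authors as 1 table of 21076 genes and 238 libraries, were used as given. Per the labels, RNA from homogenised tissue went through Smart-Seq2 and Nextera XT, unstranded. The submitters' processing notes name Trim Galore 0.3.7, STAR 2.5.3a, DESeq2 and GRCm38; the counting program and annotation are not given in the sources used here. The labels name no molecular identifiers, so counts may include PCR copies.

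From these counts, 5 aDR and 4 AL thalamus libraries (3.38 to 14.7 M counts) were compared with edgeR 4.0.16 in R 4.3.3. Settings were filterByExpr (minimum count 10, total 15), TMM, the quasi-likelihood test with Benjamini-Hochberg adjustment and no covariate. CPM uses TMM-scaled totals, except marker levels across regions, which use plain totals. Diets share no mouse number, so libraries were not paired, and p-values measure the spread between these mice. The 16 within-diet library pairs differed by more than sampling noise (chi-square per degree of freedom at least 5.02). The region test used limma 3.58.1 on log2 CPM (prior count 2) of each mouse, the thalamus minus 11 other regions. Alternatives were DESeq2 1.42.0, limma voom, other scalings and filters, and each mouse left out. The fits were tested on simulated data.

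Genes were named by a fixed rule: the 10 smallest p, the 3 largest changes each way at 5 CPM or more, up to 4 members per list by p, 12 chosen genes and the 5 leading genes of the region test. Usp2, Per2, Arntl, Nr1d1, Sgk1, Map3k6, Slc2a1, Hcn2, Tcf7l2, Prkcd, Pdk4, Il6ra and Ifit1 fell outside it and were named after their values were seen. Some genes are not reported here. The thalamus comparison, the lists and these genes were chosen with earlier results of these data known. Of the genes tested, 78.6% matched a RefSeq promoter window.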

Additional observations from a re-analysis of the deposited data

Results flagged for a closer look

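The groups of 4 or 5 libraries examined covered 87 entries of named genes and 4 library measures in each diet. Hba-a1 and Kitl were entered more than once. In 10 of these 182 groups 1 library stood far from the others by Dixon's test at 95%, where chance gives about 9.1. Of these, 3 were in aDR mouse 67: Fmo2 at 20.4 CPM against 6.51 to 7.31 in the other restricted mice, Mcam at 6.73 against 8.20 to 8.48, and Enpp6 at 6.48 against 13.1 to 13.8. In aDR mouse 61 the interferon-induced genes Ifit1 (35.5 CPM against 3.28 to 4.68) and Ifit3 (89.4 against 14.4 to 24.0) and the precursor gene Cspg4 (13.9 against 9.97 to 10.8) stood high. Per1 was low in aDR mouse 64 (27.5 CPM against 35.4 to 38.6), and Proz was high in aDR mouse 62 (4.22 against 2.77 to 2.99). In AL mouse 68, Herpud1 was low (108 CPM against 114 to 115) and the cation channel gene Trpc4 was high (16.3 against 1.68 to 3.61). The causes were not tested.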

How the results depend on the processing

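The count of 0 genes called by edgeR in the thalamus (589 at unadjusted p under 0.05) became 15 with DESeq2, 7 with limma voom and sample weights, and 1 with the spread of both experiments. It was 0 to 0 with each mouse left out. It was also 0 without aDR mouse 64 and AL mouse 68, with size factors of DESeq2, without TMM and with either other filter. The thalamus against 11 other regions gave 0 calls, and 0 with no replicate block, where libraries of 1 mouse count as independent. Leaving out each mouse gave 0 to 0, and the other alternatives of this test 0. The clock list's median log2 change of 0.051 ran from -0.035 (without AL mouse 68) to 0.11 over the mice left out, and was -0.011 without that mouse and aDR mouse 64. The cause was not tested.

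Of 87 entries of named genes, in which Hba-a1 and Kitl were entered more than once, 82 kept their sign in every alternative run that tested them. Some genes were not tested in every run: Hbb-bs was in 12 and Hif3a in 16, where Cirbp was in 17. Many were named for a small p, so a kept sign is no independent evidence. C4b, at a log2 change of 0.01, turned to -0.021 without TMM and to -0.040 with limma voom, and ran from -0.22 to 0.39 over the mice left out. Tcf7l2 ran from -0.026 (without AL mouse 68) to 0.14, Trpc4 from -1.25 to 0.19 (without AL mouse 68), Ifit1 from -0.69 (without aDR mouse 61) to 1.05 and Ifit3 from -0.093 (without aDR mouse 61) to 1.14. Without AL mouse 68 and aDR mouse 64 together, Tcf7l2 was -0.00728 and Trpc4 0.036. The diet difference in mitochondrial share ran from -0.099 to 0.13 percentage points over the mice left out, and that in the share of the top 10 genes from -0.010 to 0.21. Depth limits genes of few reads such as Proz, most of all in aDR mice 64 and 67 (3.38 and 3.93 M counts).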

Other observations

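Ribosomal and respiratory chain genes had small differences of 1 sign. All 28 ribosomal protein genes tested and all 29 tested nuclear genes of the respiratory chain were higher in restricted mice, with a median log2 change of 0.15 in each, against 49.9% of all genes above 0. None of them reached unadjusted p under 0.05. Rps2 averaged 168 ± 29.3 CPM (SD, n = 5) against 145 ± 14.5 (SD, n = 4), Rpl3 818 ± 75.97 against 737 ± 67.04 CPM, the complex I subunit Ndufa2 133 ± 36.1 against 105 ± 19.4 CPM and the complex II subunit Sdhb 255 ± 49.3 against 217 ± 18.5 CPM, each with overlap. The summed ribosomal level was 4894 to 7501 CPM in aDR and 5042 to 6418 CPM in AL mice. Genes measured in the same libraries are not independent, so their number is no measure of support. Without aDR mouse 64 and AL mouse 68, the 28 ribosomal genes were all still higher, and 27 of the respiratory chain genes were higher and 2 lower.

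Interferon-stimulated genes were high in 1 library. Of 17 tested, 13 were higher and 4 lower, with a median log2 change of 0.27 and none at unadjusted p under 0.05. With aDR mouse 64 and AL mouse 68 left out, 16 were higher and 1 lower (median 0.38). Their summed level was 506 CPM in aDR mouse 61, 153 to 186 CPM in the other restricted mice and 160 to 259 CPM in fed mice. The log2 change of Ifit3 was 0.86 with that mouse and -0.09 without it.

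Red cell genes were uneven. Summed haemoglobin stood at 4.50, 37.4, 13.8, 0 and 2.99 CPM in aDR mice and at 0, 3.48, 1.34 and 1.20 CPM in AL mice (exact permutation p = 0.246, adjusted over 4 measures 0.836, two-sided, n = 5 and 4). Of 11 blood genes only 4 passed the count filter. All 4 were higher (median log2 change 1.67), and 2 reached unadjusted p under 0.05, both higher, against 1.88% of all genes. The summed level of the 11 overlapped, at 193 to 298 CPM in aDR and 133 to 266 CPM in AL mice. Hbb-bs averaged 3.61 ± 4.30 against 0.376 ± 0.316 CPM (log2 change 3.28, edgeR adjusted p = 0.990) and Hba-a1 5.04 ± 6.25 against 0.667 ± 0.787 CPM (log2 change 2.93, edgeR adjusted p = 0.990), both with overlap. At such AL levels these 2 genes passed the filter mainly through aDR libraries, so their direction is no support for a diet difference. Without mice 64 and 68, 1 of the 4 reached unadjusted p under 0.05. Xlr3b, one of the 3 largest positive changes by the naming rule, gave 6.72, 11.7, 7.61, 7.33 and 11.2 against 6.71, 4.08, 1.84 and 5.596 CPM, barely without overlap (log2 change 0.99, edgeR adjusted p = 0.990). It belongs to a family of near-identical X-linked copies, so its count is uncertain.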
